A study of Mus musculus with 4 samples.

Results

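GATA-1 V205M, a form of the erythroid transcription factor GATA-1 whose binding to its cofactor FOG-1 is weakened, was set against the G1E control to describe what this mutant still changes. All genes in the authors' deposited table of that comparison were taken, 1054 of 12931 genes tested, and the 6 deposited tables together name 2982 genes. The sample is G1E, a mouse erythroblast line made from Gata1-null embryonic stem cells. The groups are G1E cells with GATA-1 V205M, with GATA-1 WT, with GATA-1 2RA, a second altered form whose change is not spelled out in the labels, and the G1E control with none of these named. They are called V205M, WT, 2RA and control cells here. All 4 groups were treated with β-estradiol, total RNA was sequenced, and each group is 1 sample, so no difference has a replicate check. The sources used here do not give the promoter of the introduced gene, the number of clones or the time in β-estradiol.

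GATA-1 binds GATA words in DNA through its zinc fingers and is needed for red cell, megakaryocyte and mast cell maturation. Its N-terminal finger also binds FOG-1, the product of Zfpm1, which joins GATA-1 to chromatin complexes that activate some genes and repress others. In erythroblasts this pair is known for turning on globin, heme and membrane genes and for turning down Gata2 and Kit, which serve earlier progenitors.

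The unit of a level is the scaled read, a group's mean read count divided by the authors' size factor, and changes are log2 of V205M over control levels with 1 scaled read added to each. Of the 12931 genes, 625 (4.83%) were listed as higher and 429 (3.32%) as lower in V205M cells, 8.15% in all. The authors' limits were an adjusted p of 0.01 and a 2-fold change, so the values describe the genes that were chosen by them. The median change was 1.44 among the higher genes and -1.77 among the lower ones. The higher genes stood at a median of 228 scaled reads in V205M cells and 79.1 in control cells, and the lower genes at 36.7 in V205M cells and 122 in control cells. Large changes leaned the other way, since 147 genes were over 4-fold higher and 162 over 4-fold lower, 47 and 63 were past 8-fold, and 11 and 20 past 16-fold. The split depends on scaling, but only listed genes enter, so a downward shift can remove higher genes and cannot add lower ones. With the summed level set equal in V205M and control cells, a shift of -0.35 in every log2 change, 781 genes were past 2-fold, 352 of them higher (45.1%) against 59.3% in the authors' scaling. Centred on the median change of 1.11, 558 were, and 129 of these were higher (23.1%). All 429 lower genes stayed past 2-fold in both settings, so these shares do not measure the split over all genes tested.

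**Figure D1:**
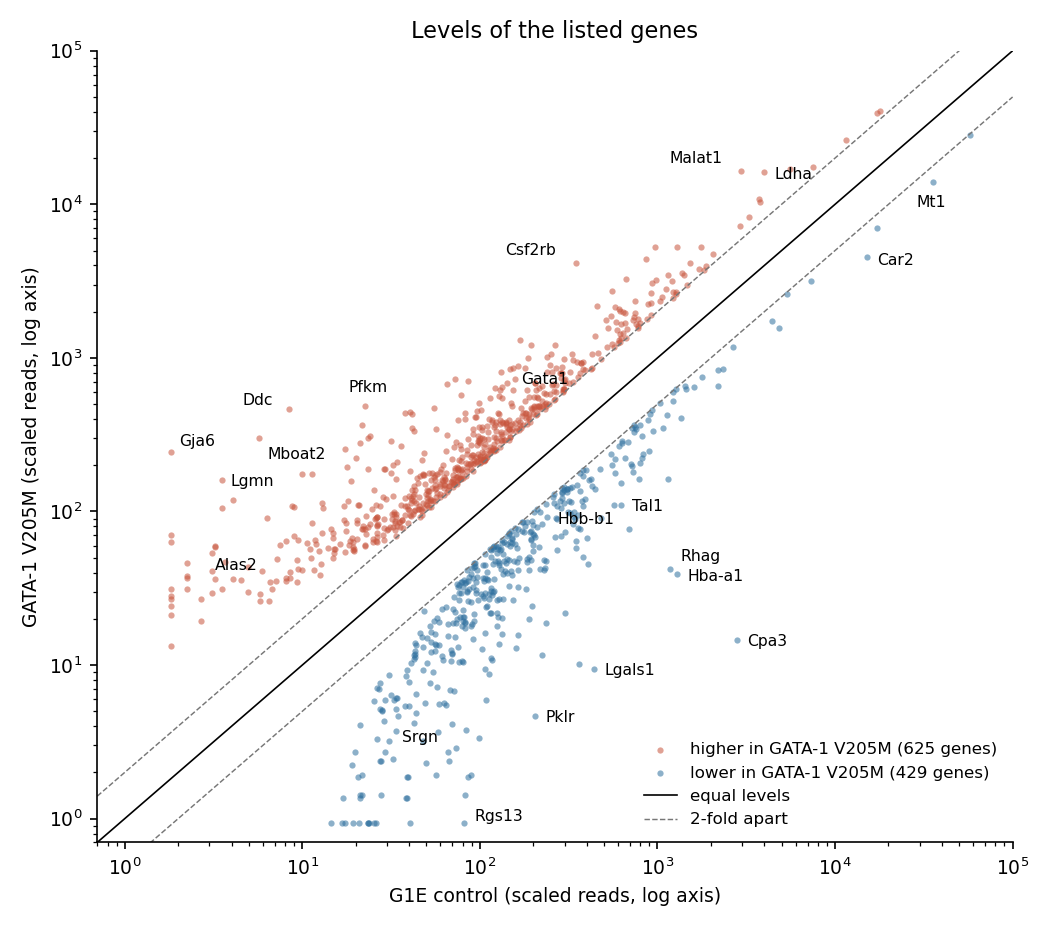
Levels of the 1054 listed genes in scaled reads, V205M cells up and control cells across, both on log axes, 1 sample each. The dashed lines mark a 2-fold difference. With 1 scaled read added, which is not done in the plot, 20 genes were over 16-fold lower and 11 over 16-fold higher. Such genes, for example Cpa3 and Gja6, lie far from the line of equal levels.

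Each V205M and control level turned out to be the mean of a pair of count columns, which the labels do not separate and which may be runs of 1 sample, while WT and 2RA levels rest on 1 count column each. Over the 1054 genes the V205M columns held 720364 and 615900 reads, and the control columns 549299 and 148416. The shallower control column is the least precise of them. In all 1054 genes both V205M columns lay on the same side of both control columns, which the authors' limits favour, because they were set on values from these columns. Over genes with 500 or more reads in both columns, the log2 column ratio had an SD of 0.0749 in V205M cells (288 genes) and 0.0617 in control cells (70 genes). Over more genes the control columns differed more, relative to counting error. The mean chi-square per gene was 2.53 in control cells (2122 genes) and 1.27 in V205M cells (1783 genes). The median ratio of the scaled columns was 1.12 in control cells and 1.01 in V205M cells. The lowest count in any column was 1. The sources used here do not say why none was lower, so 1 read may be a floor, which the intervals below do not allow for. In WT cells 1 read is 0.630 scaled reads, and in 2RA cells 0.714. Of the 1054 genes, 36 had 1 to 3 reads in all in a group, 20 of them in V205M cells and 16 in control cells. For these the ratio is that of the reads pooled over both columns of a group, each divided by the summed size factors, with its 95% interval for counting error only. It can differ from the ratio of the mean levels.

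**Figure D2:**
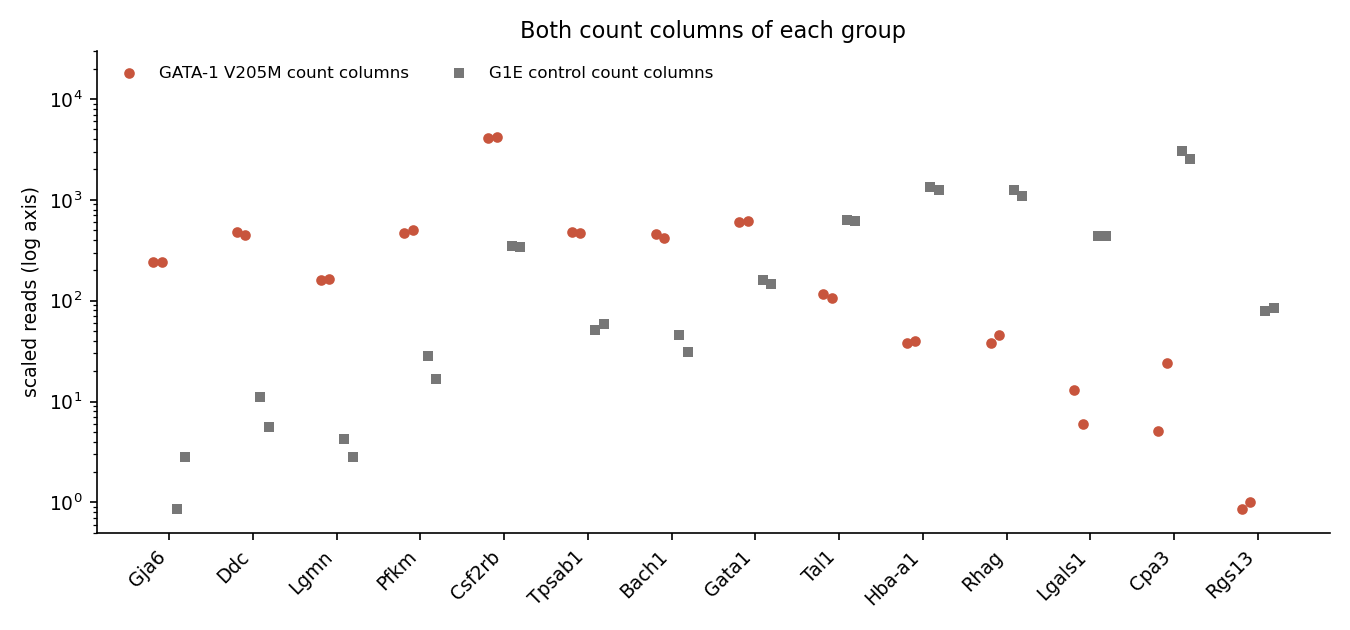
Levels of 14 listed genes in scaled reads, log axis, with both count columns of V205M cells (circles) to the left of both columns of control cells (squares). The V205M columns of Gja6 stand at 242 and 244 scaled reads against 0.857 and 2.80 in control cells, and those of Cpa3 at 5.16 and 24.0 against 3030 and 2560.

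The introduced factor was read first. Gata1 had 613 scaled reads in V205M cells, 2652 in WT cells, 1421 in 2RA cells and 153 in control cells. V205M cells thus held the least Gata1 of the 3 groups that received it, and the part that this played in any difference was not tested. The sources used here do not say whether the control reads come from the disrupted locus or elsewhere. Esr1, the estrogen receptor gene, had 13.3 scaled reads in V205M cells, 58.6 in WT cells, 43.6 in 2RA cells and 1.83 in control cells. Its ratio of V205M to control cells was 10.2-fold over pooled reads, with a 95% counting interval of 2.59 to 88.5, and 7.29-fold between the mean levels. The control value is 1 read in each column, the lowest count found in any column. Neither of the 2 genes that GATA-1 and FOG-1 turn down was listed. Gata2 stood at 1316 in V205M cells, 54.8 in WT cells, 514 in 2RA cells and 773 in control cells, and Kit at 1440 in V205M cells, 179 in WT cells, 2218 in 2RA cells and 2429 in control cells. On the log2 scale Gata2 was 0.77 and Kit -0.75, within the authors' 2-fold limit, while both were lowest in WT cells. Zfpm1 and Ldb1, which encodes a bridging protein of the GATA-1 complex, are in none of the tables.

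The DNA words that GATA-1 binds were looked for in the promoters, because they show where some of the genes below carry such a word. The words searched began with AGATA, followed by either purine, as in AGATAA with its partner form AGATAG, or with TGATA in the same manner, as in TGATAA with its partner form TGATAG. Both strands were read, in the 250 bases before and 50 after the start given by RefSeq for GRCm38.p6. Stretches of 100 bases are shown for genes among the 15 largest increases (Pfkm, Cmah) and decreases (Cpa3, Rgs13, Pklr), written 5′ to 3′ along the gene with the words in capitals; TTATCA is TGATAA read from the opposite strand.
Pfkm (chr15:98092489-98092588, plus strand): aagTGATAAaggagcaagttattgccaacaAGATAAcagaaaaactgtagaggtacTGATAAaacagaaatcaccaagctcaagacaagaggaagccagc
Cmah (chr13:24327154-24327253, plus strand): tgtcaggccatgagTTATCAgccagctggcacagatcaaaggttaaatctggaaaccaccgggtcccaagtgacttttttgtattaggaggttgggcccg
Cpa3 (chr3:20242182-20242281, minus strand): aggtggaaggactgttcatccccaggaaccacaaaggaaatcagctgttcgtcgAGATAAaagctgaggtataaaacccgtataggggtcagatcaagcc
Rgs13 (chr1:144177373-144177472, minus strand): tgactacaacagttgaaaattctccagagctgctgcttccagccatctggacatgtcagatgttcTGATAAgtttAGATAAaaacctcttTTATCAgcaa
Pklr (chr3:89136042-89136141, plus strand): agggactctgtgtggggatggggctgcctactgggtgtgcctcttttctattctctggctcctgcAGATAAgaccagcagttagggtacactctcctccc
The Pfkm and Rgs13 stretches hold 3 words each, and the nearest word begins 44 bases before the start of Pfkm, 46 before Cpa3, 35 before Pklr and 10 before Rgs13. That of Cmah begins 236 bases before the start.

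Such words were no more common in the promoters of listed genes than in promoters at large. They were in 104 of 473 promoters of higher genes (22.0%) and 66 of 313 of lower genes (21.1%), against 26.7% of the 17492 promoters of protein-coding genes. Among genes changed over 4-fold the shares were 25.7% for higher and 24.3% for lower genes. Of the named genes with a promoter in the table, 2 of the 11 largest increases and 6 of the 12 largest decreases held one. CACCC, the core of the word bound by Klf1, was in 60.5% of promoters of higher genes, 70.9% of lower genes and 58.4% of all protein-coding genes, on either strand. A GATA word together with an E-box, CAGCTG or CATCTG, the kind of word Tal1 binds, was in 5.07% of promoters of higher genes, 7.99% of lower genes and 8.01% of all protein-coding genes. These shares describe this short window, since much GATA-1 binding lies farther from genes, and the median GC content differed too, at 61.0% for higher, 62.7% for lower and 56.3% for all protein-coding promoters.

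The genes with the largest increases were mostly ones that WT cells held at lower levels than V205M cells. Gja6, which encodes a connexin of gap junctions (GRCm38 chromosome X, 160902116 to 160907052), had 243 scaled reads in V205M cells, 61.1 in WT cells, 2.86 in 2RA cells and 1.83 in control cells. The ratio to control cells was 185-fold over pooled reads (95% counting interval 51.0 to 1533), and 133-fold between the mean levels. Ddc, the decarboxylase that makes dopamine and serotonin (chromosome 11, 11814101 to 11898144), had 465 in V205M cells, 2.52 in WT cells, 2.14 in 2RA cells and 8.37 in control cells. It was high in V205M cells alone of the 4, and 1700042O10Rik, which overlaps it on the opposite strand, had 119 in V205M cells, 1.26 in WT cells, 1.43 in 2RA cells and 4.08 in control cells. The sources used here do not say whether strand was kept in counting, and reads of the 2 genes cannot be told apart. Mboat2, an enzyme that rebuilds membrane phospholipids (chromosome 12, 24830879 to 24964397), had 299 in V205M cells, 122.8 in WT cells, 0.714 in 2RA cells and 5.68 in control cells. Lgmn, the lysosomal protease legumain (chromosome 12, 102394084 to 102439813), had 161 in V205M cells, 15.1 in WT cells, 33.6 in 2RA cells and 3.54 in control cells. Pfkm, the muscle form of the glycolytic enzyme phosphofructokinase and the gene with 3 GATA words shown above, had 485 in V205M cells, 265 in WT cells, 95.7 in 2RA cells and 22.5 in control cells. Unlike Ddc, it was raised in each group with a form of GATA-1.

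Several of the next largest increases were also low in WT and 2RA cells. Jub, an adaptor of cell junctions, had 106 scaled reads in V205M cells, 7.56 in WT cells, 4.29 in 2RA cells and 3.54 in control cells. Rbfox2, a splicing factor, had 175 in V205M cells, 2.52 in WT cells, 3.57 in 2RA cells and 9.99 in control cells. Cmah, which converts one sialic acid into another, had 70.7 in V205M cells, 3.15 in WT cells, 0.714 in 2RA cells and 1.83 in control cells. Those 3 genes stood apart in V205M cells from all other groups. The pooled-read ratio to control cells was 54.3-fold for Cmah (14.8 to 452), 48.0-fold for the growth factor Gdf9 (13.02 to 400.0), 23.3-fold for the neurokinin gene Tac2 (7.74 to 115), 30.6-fold for the epithelial Ets factor Ehf (10.2 to 150.1) and 30.1-fold for Rab11fip5, a recycling endosome protein (10.1 to 148). These 5 rest on 2 or 3 control reads. In V205M cells Gdf9 had 62.9 scaled reads, Tac2 45.9, Ehf 59.3 and Rab11fip5 59.1. Cldn13 and Btg2 had another pattern, highest in WT cells. Cldn13, a claudin of mouse red cell precursors, had 367 in V205M cells, 2109 in WT cells, 40.01 in 2RA cells and 21.7 in control cells, and Btg2, which slows cell division, had 174 in V205M cells, 1120 in WT cells, 167 in 2RA cells and 11.3 in control cells.

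The largest decreases were those of mast cell, red cell and signalling genes. Cpa3, the carboxypeptidase of mast cell granules (chromosome 3, 20215620 to 20242181), had 14.6 scaled reads in V205M cells, 0.630 in WT cells, 5.0 in 2RA cells and 2795 in control cells. Rgs13, which shortens G protein signals, had 0.931 in V205M cells, 0.630 in WT cells, 0.714 in 2RA cells and 81.8 in control cells, where 0.931 is 1 read in each column. Over pooled reads, control cells held 87.2-fold more (23.6 to 728). Lgals1, the sugar-binding protein galectin-1, had 9.45 in V205M cells, 8.19 in WT cells, 14.3 in 2RA cells and 438 in control cells. Fgf15, a fibroblast growth factor, had 10.2 in V205M cells, 12.6 in WT cells, 6.43 in 2RA cells and 360 in control cells. For these 4 genes the V205M, WT and 2RA levels were all far below control. Tnfsf10, the death ligand TRAIL, had 1.43 in V205M cells, 0.630 in WT cells, 1.43 in 2RA cells and 82.9 in control cells, 57.2-fold more in control cells over pooled reads (19.1 to 281). Cited1, a transcription cofactor, differed between the forms, with 1.86 in V205M cells, 0.630 in WT cells, 257 in 2RA cells and 86.1 in control cells. Pklr, Hba-a1, Gzmb and Rhag, also among the 15 largest decreases, are described with their gene groups. The remaining 5 were Ptpru, Thrb, Nhsl2, Dnahc8 and Ceacam3, with 0.931 to 3.36 scaled reads in V205M cells and 40.7 to 99.4 in control cells. Ceacam3, a cell adhesion molecule, was 49.6-fold more abundant in control cells over pooled reads (13.2 to 418).

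**Figure D3:**
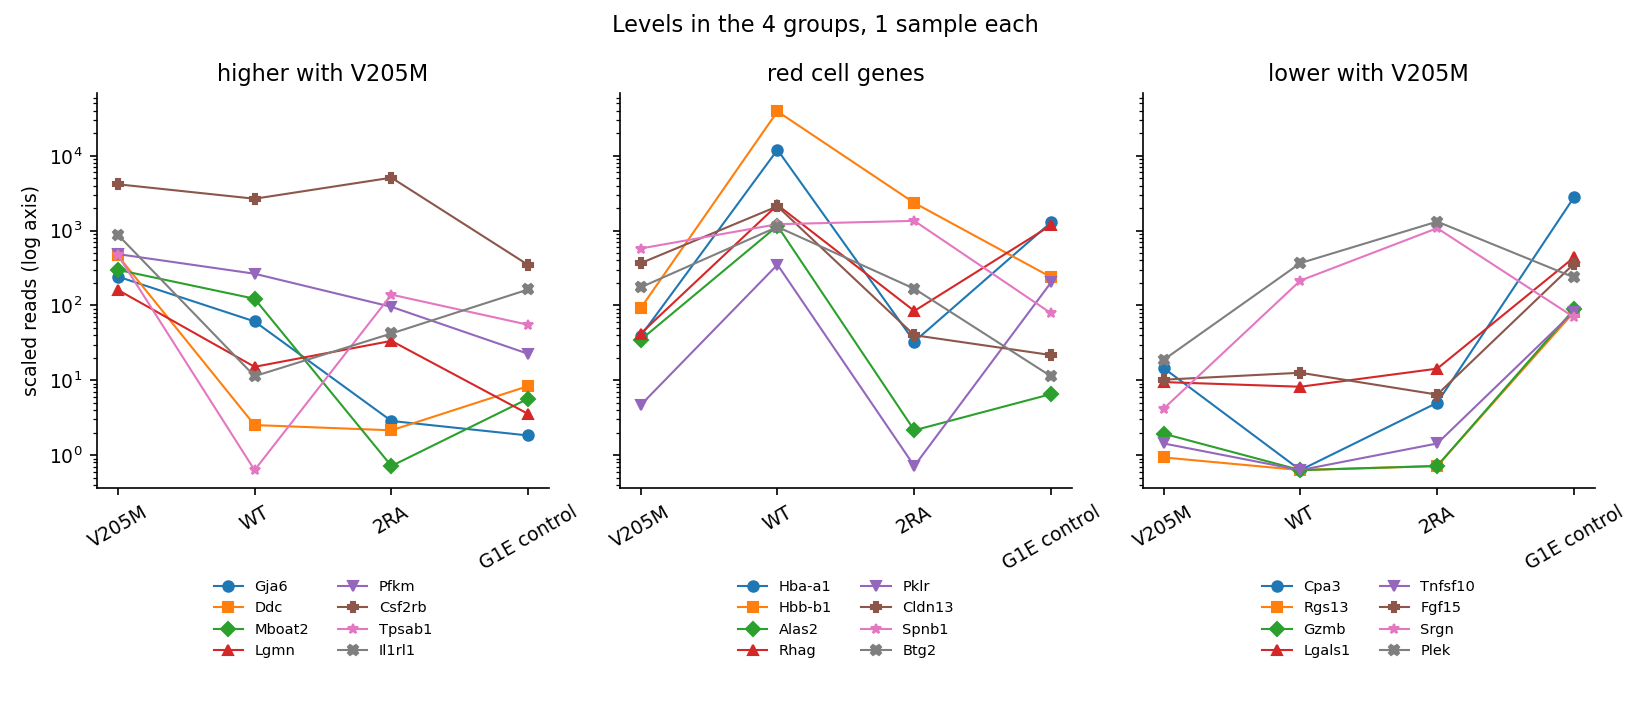
Levels of 24 named genes in V205M, WT, 2RA and control cells, in scaled reads on a log axis, 1 sample each, with a line joining the 4 values of a gene. In the middle panel Hba-a1 and Rhag lie lower in V205M than in control cells and highest in WT cells, and in the left panel Ddc is high in V205M cells only, at 465 scaled reads.

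Globin genes were lower. Of 11 globin-list genes, 3 were listed, all lower, with a median change of -1.58 against 1.11 over all listed genes. Hba-a1, an adult alpha-globin gene, had 38.9 scaled reads in V205M cells, 12001 in WT cells, 32.9 in 2RA cells and 1291 in control cells. Its near-identical copy Hba-a2 had 19.0 in V205M cells, 2619 in WT cells, 7.86 in 2RA cells and 58.9 in control cells, and the division of reads between the copies is uncertain. Hbb-b1, adult beta-globin, had 91.6 in V205M cells, 39108 in WT cells, 2342 in 2RA cells and 238 in control cells. V205M cells were therefore below control cells for all 3, while WT cells were highest, and for beta-globin 2RA cells lay between control and WT cells. Hbb-b2, not listed, had 19.3 in V205M cells and 35.5 in control cells.

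Heme synthesis genes were mostly higher, 4 of 5 listed of 20 genes, with a median of 1.59. Alas2, the first enzyme of heme synthesis in red cells, had 34.7 scaled reads in V205M cells, 1154 in WT cells, 2.14 in 2RA cells and 6.54 in control cells. Tmem14c, which moves a heme precursor into mitochondria, had 691 in V205M cells, 1236 in WT cells, 646 in 2RA cells and 204 in control cells. Abcb10, a mitochondrial transporter of the pathway, had 272 in V205M cells, 3195 in WT cells, 844 in 2RA cells and 89.6 in control cells. All 3 were higher in V205M cells than in control cells and highest in WT cells. Ppox, the next-to-last enzyme, had a change of 1.43, and Alad, the second enzyme, was lower at 42.2 in V205M cells, 510 in WT cells, 221 in 2RA cells and 132 in control cells. Iron handling genes were 2 higher and 2 lower of 22. Tfrc, the transferrin receptor, had 3451 in V205M cells, 4018 in WT cells, 1306 in 2RA cells and 1145 in control cells, and Blvrb, biliverdin reductase, had a change of 1.01. Steap3, the reductase that frees iron in endosomes, was lower at 408 in V205M cells, 1510 in WT cells, 1032 in 2RA cells and 1352 in control cells, as was the ferritin light chain gene Ftl1 (-1.03).

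Red cell membrane genes went both ways, 6 higher and 6 lower of 38, with a median of 0.09 that turned to -0.26 with equal summed levels. The 2 chains of erythroid spectrin, the protein mesh under the membrane, moved in opposite directions. Spnb1, the beta chain, had 576 scaled reads in V205M cells, 1217 in WT cells, 1349 in 2RA cells and 78.5 in control cells, and Spna1, the alpha chain, had 20.6 in V205M cells, 295 in WT cells, 34.3 in 2RA cells and 126 in control cells. Tpm1, a tropomyosin of the membrane skeleton, was higher by 2.04. Rhag, the Rh-associated glycoprotein, had 41.9 in V205M cells, 2197 in WT cells, 84.3 in 2RA cells and 1180 in control cells, and Epb4.2, protein 4.2, had 1.86 in V205M cells, 30.2 in WT cells and 20.7 in control cells. Slc4a1, the band 3 anion exchanger, was not listed, at 0.931 in V205M cells, 527 in WT cells, 1.43 in 2RA cells and 5.80 in control cells.

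The list of other erythroid maturation genes had 5 higher and 7 lower members of 33, with a median of -1.27. Pklr, which encodes the red cell pyruvate kinase, had 4.65 scaled reads in V205M cells, 350.2 in WT cells, 0.714 in 2RA cells and 204 in control cells. Tspo2, an erythroid protein of cholesterol trafficking, had 11.1 in V205M cells, 20.004 in 2RA cells and 115 in control cells. Car2, carbonic anhydrase 2, had 4571 in V205M cells, 11070 in WT cells and 15117 in control cells. The higher genes included Acp5, tartrate-resistant acid phosphatase, with 343 in V205M cells, 699.7 in WT cells, 154 in 2RA cells and 56.5 in control cells. Ube2l6, a ubiquitin-like conjugating enzyme, had 239.7 in V205M cells, 1484 in WT cells, 957 in 2RA cells and 48.2 in control cells. Nt5c3, which clears pyrimidine nucleotides from red cells, had 2193 in V205M cells, 4660 in WT cells, 2426 in 2RA cells and 458 in control cells. Those 3 were raised in all groups with a form of GATA-1 and most in WT cells.

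Erythroid transcription factors and cofactors leaned lower, with 8 of 55 against 6 higher, with a median of -1.38. Tal1, a partner of GATA-1, had 111 scaled reads in V205M cells, 341 in WT cells, 333 in 2RA cells and 627 in control cells. Its relative Lyl1 had 21.7 in V205M cells and 302 in control cells, and Klf3, a repressor of the Klf family, 21.8 in V205M cells, 114 in WT cells and 116 in control cells. All 3 were lowest in V205M cells among the groups with a value. Sox6, which silences embryonic globin, was 12.3-fold more abundant in control cells over pooled reads (95% counting interval 3.77 to 63.4), on 3 V205M reads. Among the higher genes, Bach1, the heme-regulated repressor, had 435 in V205M cells, 487 in WT cells, 373 in 2RA cells and 38.1 in control cells. Lmo2, which bridges Tal1 and GATA-1, had 401 in V205M cells, 1293 in WT cells, 694 in 2RA cells and 82.2 in control cells. Mafk, a partner of Bach1 and Nfe2, was higher by 1.71, while Nfe2 changed by -1.79 and Bcl11a, a repressor of fetal globin in humans, by -1.19. Klf1, Gfi1b and Myb were not listed, with changes of -0.27, -0.01 and -0.03. Klf1, a defining factor of erythroblasts, was present in all groups, at 382 scaled reads in V205M cells, 1418 in WT cells, 381 in 2RA cells and 462 in control cells.

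The mast cell list had 5 higher and 8 lower genes of 44, with a median of -1.76 that turned to 1.29 among genes reaching 100 scaled reads in either V205M or control cells. The genes of this list were split. Besides Cpa3 and Rgs13, the lower ones included Gzmb, the protease granzyme B, with 1.93 scaled reads in V205M cells, 0.630 in WT cells, 0.714 in 2RA cells and 88.7 in control cells. Srgn, the proteoglycan that packs granules, had 4.15 in V205M cells, 215 in WT cells, 1077 in 2RA cells and 69.6 in control cells. Cyp11a1, a steroid-making enzyme found in mast cells, had 11.6 in V205M cells, 0.630 in WT cells, 1.43 in 2RA cells and 223 in control cells. Srgn was thus lowest in V205M cells, unlike Gzmb and Cyp11a1. On the other side Tpsab1, a tryptase, had 474 in V205M cells, 0.630 in WT cells, 139 in 2RA cells and 55.1 in control cells. Hdc, which makes histamine, had 121 in V205M cells, 1.89 in WT cells, 33.6 in 2RA cells and 29.5 in control cells, and Ms4a2, the beta chain of the IgE receptor, 383 in V205M cells, 0.630 in WT cells, 2.14 in 2RA cells and 140.0 in control cells. Il1rl1, the interleukin-33 receptor, had 882 in V205M cells, 11.3 in WT cells, 42.2 in 2RA cells and 163 in control cells. These 4 were highest in V205M cells and lowest in WT cells. Summed over the 13 listed genes of the list, the level was 2124 in V205M cells and 3991 in control cells. Cpa3 alone set this order, since without it the sums were 2109 in V205M cells and 1196 in control cells. In bulk RNA fewer cells of a type and less RNA per cell cannot be told apart.

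Megakaryocyte and platelet genes were 0 higher and 6 lower of 38, a listed share of 15.8%, with a median of -2.37. Plek, the platelet kinase substrate pleckstrin, had 18.7 scaled reads in V205M cells, 368 in WT cells, 1319 in 2RA cells and 237 in control cells. P2rx1, an ATP-gated channel, had 7.66 in V205M cells, 3.15 in WT cells, 209 in 2RA cells and 52.2 in control cells. Gp5, a platelet surface glycoprotein, had 5.94 in V205M cells, 63.6 in 2RA cells and 29.4 in control cells. Each of these 3 was highest in 2RA cells. Rab27b, Nbeal2 and P2ry1, of granules and ADP sensing, were lower by 2.95, 1.49 and 1.72 on the log2 scale in V205M cells. The 6 genes summed to 89.4 in V205M cells and 503 in control cells. Of the markers of other blood and tissue cells, those listed were 1 of 17 for eosinophils and basophils (Cd200r3, lower), 2 of 27 for neutrophils and macrophages (Csf2rb and Itgb2, higher), 1 of 14 for endothelium (Egfl7, higher), 0 of 23 for lymphocytes and 0 of 15 for stroma. The listed share was 5.88% for eosinophils and basophils, 7.41% for neutrophils and macrophages and 7.14% for endothelium, beside 8.15% over all genes tested. Listed shares here and below are over all genes named in a list, and how many of those were tested is not known. Some lists also count an older and a newer symbol of the same gene separately. The shares are therefore a rough guide beside the 8.15%. Cd200r3 had 5.58 in V205M cells and 59.0 in control cells, and Egfl7 had 109 in V205M cells and 8.79 in control cells. The part that other cell types played in any result was not tested.

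Stem and progenitor markers were split, 5 higher against 4 lower of 34, with a median of 1.59 that turned to -0.081 among genes reaching 100 scaled reads. Csf2rb, the shared beta chain of the interleukin-3, interleukin-5 and GM-CSF receptors, had 4158 scaled reads in V205M cells, 2664 in WT cells, 5095 in 2RA cells and 347 in control cells. Its neighbour Csf2rb2, the mouse interleukin-3 receptor beta chain, had 1015 in V205M cells, 538 in WT cells, 3306 in 2RA cells and 240.0 in control cells. Both were raised in every group with a form of GATA-1, though their similar sequences can share reads. Cd44, a hyaluronan receptor, had 873 in V205M cells, 174 in WT cells, 321 in 2RA cells and 289.9 in control cells, and Ahnak, a large scaffold protein, 261 in V205M cells, 3.15 in WT cells, 379 in 2RA cells and 71.8 in control cells. Lmo4, an adaptor like Lmo2, was lower, at 30.5 in V205M cells, 8.19 in WT cells, 69.3 in 2RA cells and 115 in control cells.

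Cytokine receptors and their signalling genes were 4 higher and 7 lower of 79, a listed share of 13.9%. Their median was -1.26 and turned to 1.30 among genes reaching 100 scaled reads. Il4ra, the interleukin-4 receptor, had 5.94 scaled reads in V205M cells, 9.45 in WT cells, 151 in 2RA cells and 32.8 in control cells. Stat5b, which carries erythropoietin and interleukin-3 signals, was higher by 1.30. Its relative Stat5a, not listed, went the other way (-0.81), at 108 in V205M cells, 40.9 in WT cells, 172 in 2RA cells and 190 in control cells. Behind the receptors, 13 of 35 genes for kinases, phosphatases and adaptors of immune receptor signalling were listed, 4 higher and 9 lower. Lat, an adaptor of T cells and mast cells, had 2.72 in V205M cells, 0.630 in WT cells, 57.9 in 2RA cells and 19.8 in control cells, and the kinase Fyn 28.0 in V205M cells, 20.2 in WT cells, 126 in 2RA cells and 104 in control cells. The adaptor Dok2 had 10.4 in V205M cells, 6.93 in WT cells, 229 in 2RA cells and 79.9 in control cells. In each of these 3, 2RA cells were highest and V205M and WT cells below control cells. The neighbouring kinase genes Txk and Tec were higher, by 2.98 and 1.77. Genes of TGF-beta, BMP, Wnt, Notch and Hedgehog signalling were 2 higher and 4 lower of 90, among them the ligand Tgfb3 (2.41), Tgfb1 (-1.18), the receptor Notch3 (-3.82) and the Wnt receptor Fzd5 (-2.73). Interferon genes were 0 higher and 3 lower of 40, namely B2m (-2.02), Ifi30 (-2.09) and Ifitm2 (-1.16), which serve antigen presentation and antiviral defence. The listed share was 7.5% for interferon genes and 6.67% for the TGF-beta to Hedgehog list, beside the 8.15% over all genes tested.

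Receptors for small signals were also among the changes. Of 19 purine receptor genes, P2rx7, P2rx1, P2rx4 and P2ry1 were lower and Adora3, an adenosine receptor of mast cells, was higher. Adora3 had 308 scaled reads in V205M cells, 6.93 in WT cells, 48.6 in 2RA cells and 24.0 in control cells. P2rx4 had 40.9 in V205M cells, 101 in WT cells, 155 in 2RA cells and 149 in control cells. Prostanoid and leukotriene genes were 1 higher and 5 lower of 53, a listed share of 11.3% against 8.15% over all genes tested. The prostacyclin receptor Ptgir had 3.29 in V205M cells, 11.97 in WT cells, 118 in 2RA cells and 26.2 in control cells, and Alox5, which starts leukotriene synthesis, 38.6 in V205M cells, 1.89 in WT cells, 136 in 2RA cells and 152 in control cells. Lta4h, which makes leukotriene B4, was the higher one, with 295 in V205M cells, 86.9 in WT cells, 196 in 2RA cells and 85.3 in control cells. Regulators of G protein signalling were 0 higher and 3 lower of 23, Rgs18 (-3.28) and Rgs10 (-1.90) besides Rgs13. Nuclear receptors were 3 higher and 2 lower of 47, a listed share of 10.6% against that 8.15%. The thyroid hormone receptor Thrb stood at 2.36 in V205M cells, 5.04 in WT cells, 0.714 in 2RA cells and 67.4 in control cells. Apart from Esr1, the estrogen response list held 1 listed gene, the cofactor Nrip1 (-2.04).

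**Figure D4:**
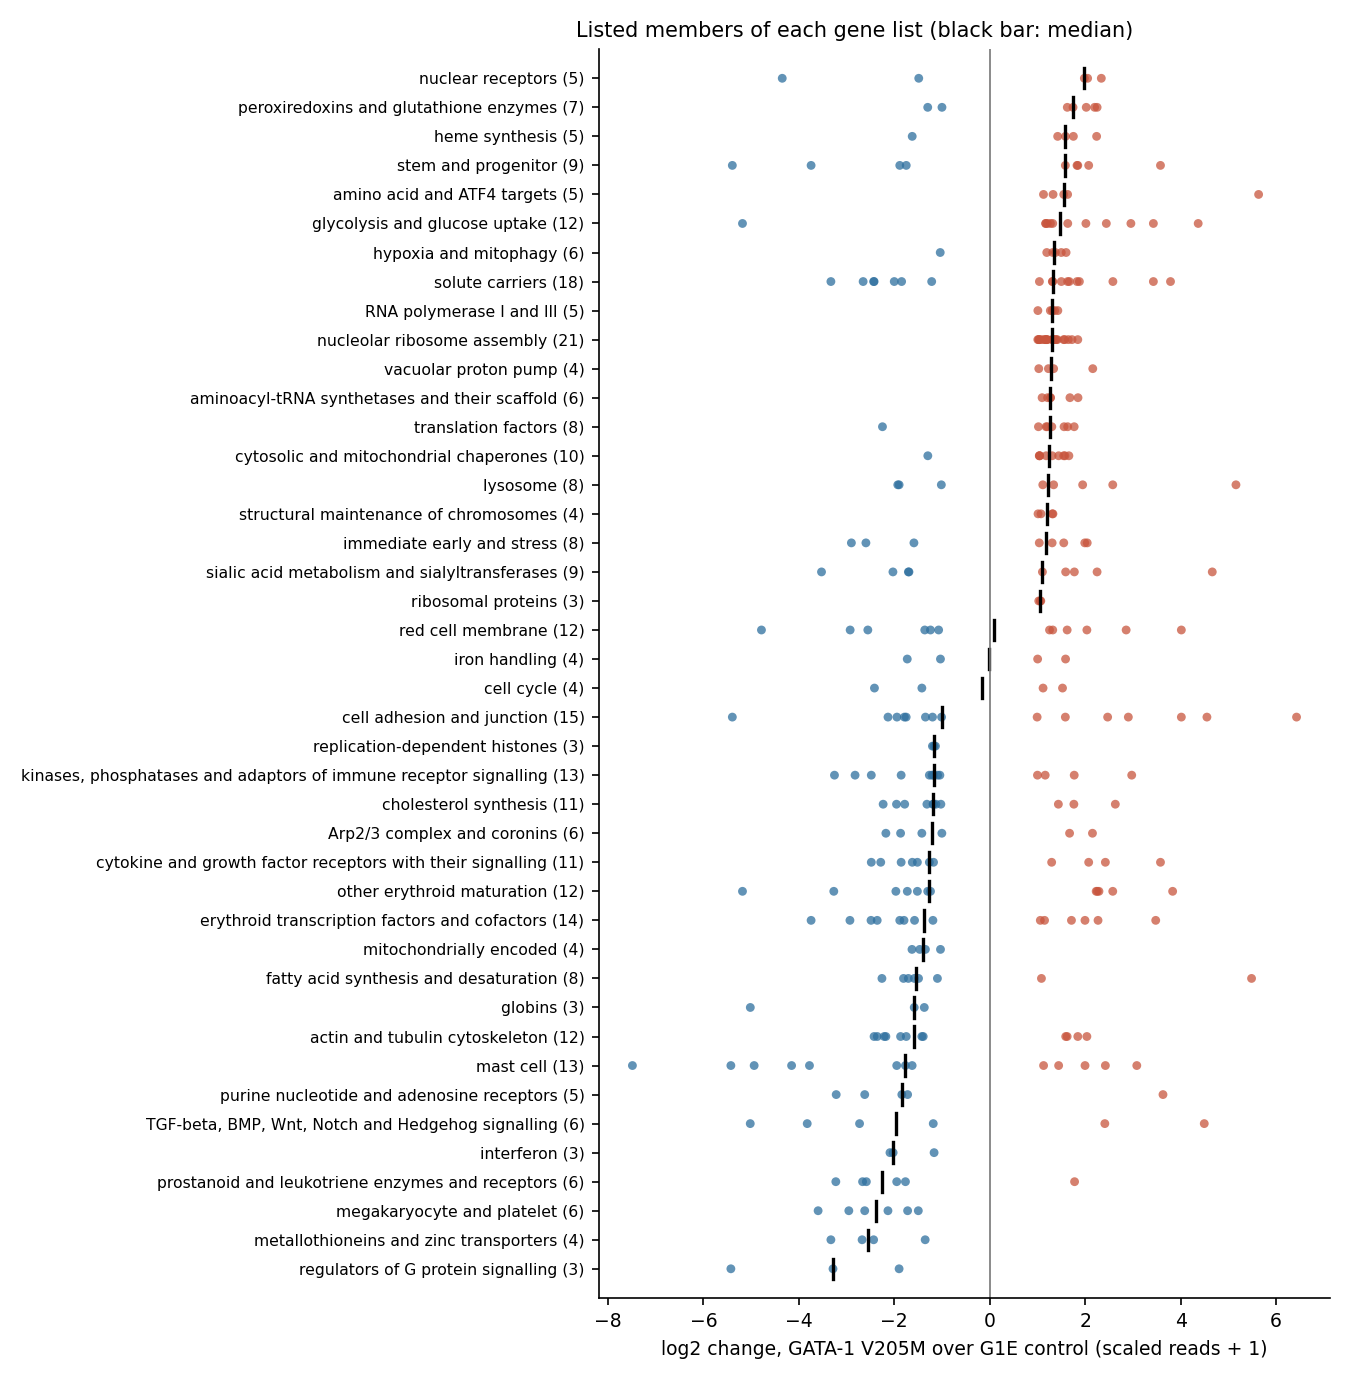
Log2 change of V205M over control cells, levels plus 1 scaled read, for the listed members of each gene list with 3 or more of them (number in parentheses), points red where higher and blue where lower, black bar at the median. Glycolysis has 11 of 12 points on the right and nucleolar ribosome assembly 21 of 21, while megakaryocyte genes lie on the left; the median of red cell membrane genes changes sign with equal summed levels and that of ribosomal proteins when centred.

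Glycolysis genes were higher. Of 38 genes for glycolysis and glucose uptake 12 were listed, 11 higher and Pklr lower, with a median of 1.48. Slc2a3, a glucose transporter, had 107 scaled reads in V205M cells, 1440 in WT cells, 1568 in 2RA cells and 9.02 in control cells. Hk2, the first enzyme, had 336 in V205M cells, 106 in 2RA cells and 42.4 in control cells. Eno1, enolase 1, had 5271 in V205M cells, 3698 in WT cells, 2986 in 2RA cells and 967 in control cells. Ldha, the lactate dehydrogenase at the end of the path, had 16141 in V205M cells, 20748 in WT cells, 4333 in 2RA cells and 3987 in control cells. All 4 were above control in V205M cells, and Ldha was near control in 2RA cells. Pgam1, Tpi1, Pkm2, Aldoa and Pfkl were higher by 1.17 to 1.64. Pkm2 is the pyruvate kinase gene of most growing cells, and it stood at 4754 in V205M cells, 4904 in WT cells, 1518 in 2RA cells and 2056 in control cells while Pklr was nearly silent in V205M cells. Hypoxia and mitophagy genes were 5 higher and 1 lower of 32. Hif1a, the oxygen-sensing factor, had 282 in V205M cells, 132 in WT cells, 265 in 2RA cells and 98.8 in control cells. Bnip3, a mitophagy receptor, had 111 in V205M cells, 759.6 in WT cells, 30.7 in 2RA cells and 35.7 in control cells.

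Lipid genes were mostly lower. Cholesterol genes were 3 higher and 8 lower of 37, with a median of -1.18. The synthesis enzymes listed, Fdft1, Fdps, Sc5d, Sc4mol, Dhcr7 and Sqle, were all lower, by 1.13 to 2.23 on the log2 scale. Fdft1, squalene synthase, had 48.3 scaled reads in V205M cells, 185 in WT cells, 70.0 in 2RA cells and 231 in control cells. Insig2, which holds back the regulator of this pathway, was higher at 91.8 in V205M cells, 122 in WT cells and 26.3 in control cells. The 2 genes for cholesterol ester synthesis went opposite ways: Soat2 had 117 in V205M cells, 240.0 in WT cells, 189 in 2RA cells and 18.05 in control cells, and Soat1 had 68.1 in V205M cells, 0.630 in WT cells, 17.9 in 2RA cells and 267 in control cells. Fatty acid genes were 2 higher and 6 lower of 30. The adjacent desaturase genes Fads2 and Fads1 were lower together, with 164 and 236 in V205M cells, 445 and 633 in WT cells, 164 and 219 in 2RA cells, and 787 and 828 in control cells. Scd2, another desaturase, was lower by 1.49 and Elovl6, an elongase, by 1.58.

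Sialic acid genes, a family picked after the values were seen, were 5 higher and 4 lower of 34. The higher ones were Cmah, Cmas, which activates the sugar, Nagk, Npl, which breaks it down, and the ganglioside enzyme St3gal5. Cmas had 61.0 scaled reads in V205M cells, 236 in WT cells, 49.3 in 2RA cells and 12.02 in control cells. The lower ones all attach it to other sugar chains: St8sia4 (-3.52), St3gal6 (-2.03), St3gal1 (-1.70) and St3gal2 (-1.69). St3gal2 had 47.3 in V205M cells, 768 in WT cells, 244 in 2RA cells and 155 in control cells, and was lowest in V205M cells.

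Genes for making ribosomes and proteins, also picked after the values were seen, were nearly all higher where listed. Of 82 genes of nucleolar ribosome assembly 21 were listed, all higher, with a median of 1.31. Gnl3, nucleostemin, had 988 scaled reads in V205M cells, 459 in WT cells, 413 in 2RA cells and 298 in control cells. Nop56, of small nucleolar particles, had 3165 in V205M cells and 1205 in control cells, Dkc1, the pseudouridine synthase dyskerin, 1857 in V205M cells and 735 in control cells, and Pes1 1060 in V205M cells and 426 in control cells. WT and 2RA levels of those 3 are not in the tables used here. RNA polymerase I and III genes were 5 higher and 0 lower of 36, a listed share of 13.9%. Among them was Rrn3, a start factor of polymerase I, with 471 in V205M cells, 183 in 2RA cells and 194 in control cells. Aminoacyl-tRNA synthetases were 6 higher and 0 lower of 39, a listed share of 15.4%. Hars stood at 899.9 in V205M cells, 1186 in WT cells, 883 in 2RA cells and 249 in control cells. Translation factors were 7 higher and 1 lower of 86, a listed share of 9.30% that is near the 8.15% over all genes tested. The lower one, Eef2k, is the kinase that inhibits the elongation factor Eef2; it had 56.6 in V205M cells, 73.1 in WT cells, 104 in 2RA cells and 272 in control cells, while Eef2 had 17392 in V205M cells, 21429 in WT cells, 10451 in 2RA cells and 7522 in control cells. Ribosomal protein genes were 3 higher and 0 lower of 90, a listed share of 3.33% beside that 8.15%. How many of the 90 were tested is not known. The listed ones lay close to the 2-fold limit, with a median of 1.06 that turned to -0.044 when centred. Chaperones were 9 higher and 1 lower of 109, a share of 9.17% that is near the 8.15%. Hspd1, the mitochondrial chaperonin, stood at 10297 in V205M cells, 4431 in WT cells, 4304 in 2RA cells and 3778 in control cells.

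Amino acid and stress genes ran the same way in part. The list of amino acid genes and targets of the stress factor ATF4 was 5 higher and 0 lower of 39, with a median of 1.55. Its listed share was 12.8%, beside 8.15% over all genes tested. Besides Ddc the list held Slc7a5, a large amino acid transporter, with 1982 scaled reads in V205M cells, 939.7 in WT cells, 1476 in 2RA cells and 638 in control cells. Mthfd1, of one-carbon metabolism, had 2801 in V205M cells, 429 in WT cells, 1297 in 2RA cells and 1114 in control cells. Slc7a6, a second transporter, had 255 in V205M cells, 51.6 in WT cells, 219 in 2RA cells and 17.5 in control cells. Both transporters were highest in V205M cells. The immediate early and stress list had 5 higher and 3 lower genes of 34, with Jun (1.99) and Txnip (2.04) among the higher and the mRNA-decay genes Zfp36 (-2.59) and Zfp36l2 (-2.90) among the lower. Solute carriers were 11 higher and 7 lower of 399 annotated Slc genes, 4.51% of them, with a median of 1.32. As with the other lists, how many of the 399 were tested is not known here, so that share is not set against the 8.15%. Lower carriers included the manganese exporter Slc30a10, with 10.7 in V205M cells, 489 in WT cells, 5.0 in 2RA cells and 117 in control cells, and the zinc transporter Slc30a2, with 41.7 in V205M cells, 2.52 in WT cells, 39.3 in 2RA cells and 229 in control cells. With these, the metal-binding metallothioneins Mt1 (-1.35) and Mt2 (-2.67) made the metallothionein and zinc list 0 higher and 4 lower of 30. The listed share of that list was 13.3%. Mt1 had 13958 in V205M cells, 4100 in WT cells, 21169 in 2RA cells and 35606 in control cells.

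Lysosome genes were 5 higher and 3 lower of 62, with a median of 1.23. Their listed share was 12.9%, beside 8.15% over all genes tested. Ctsl, a cathepsin, had 41.4 scaled reads in V205M cells, 169 in WT cells, 2.86 in 2RA cells and 9.99 in control cells. The vacuolar proton pump that acidifies lysosomes was 4 higher and 0 lower of 28, a listed share of 14.3%. Its gene Atp6v1e1 stood at 184 in V205M cells, 172 in WT cells, 112 in 2RA cells and 40.5 in control cells. Peroxiredoxins and glutathione enzymes were 5 higher and 2 lower of 29. Gss, glutathione synthetase, had 642 in V205M cells, 68.7 in WT cells, 122.9 in 2RA cells and 134 in control cells. Prdx6 had 5251 in V205M cells, 3661 in WT cells, 1103 in 2RA cells and 1290 in control cells, and Gpx1, a peroxide-clearing enzyme, was lower at 7013 in V205M cells, 7285 in 2RA cells and 17240 in control cells. Prdx6 and its near copy Prdx6b can share reads.

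Adhesion and cytoskeleton genes went both ways. Adhesion and junction genes were 7 higher and 8 lower of 80. Fermt3, the kindlin of blood cells that activates integrins, had 857 scaled reads in V205M cells, 3099 in WT cells, 4204 in 2RA cells and 154 in control cells. Icam2, an integrin ligand, had 43.5 in V205M cells, 71.2 in WT cells, 116 in 2RA cells and 4.94 in control cells. The integrin chains Itga4 (-1.79), Itgal (-2.13) and Itgb7 (-1.75) were lower, whereas Itgb2, at the limit of listing, was higher by 0.995. Actin and tubulin genes were 4 higher and 8 lower of 91, with a median of -1.58. Their listed share was 13.2%, beside 8.15% over all genes tested. Flna, the actin cross-linker filamin A, had 110.2 in V205M cells, 64.9 in WT cells, 241 in 2RA cells and 568 in control cells, and Myo1g, a blood cell myosin, 42.6 in V205M cells, 16.4 in WT cells, 53.6 in 2RA cells and 233 in control cells. Subunits of the Arp2/3 complex, which branches actin, were split: Arpc3 had 457 in V205M cells, 391 in WT cells, 303 in 2RA cells and 102 in control cells, and Arpc1b 224 in V205M cells, 390.5 in WT cells, 1091 in 2RA cells and 821 in control cells. With Arpc1a (1.67) and 3 coronins, that family was 2 higher and 4 lower of 16. The transglutaminases Tgm1 (-3.94) and Tgm2 (-4.14), which cross-link proteins, were both lower, with Tgm2 at 3.79 in V205M cells, 3.78 in WT cells, 10.7 in 2RA cells and 83.7 in control cells.

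Cell cycle genes were 2 higher and 2 lower of 42, a listed share of 9.52% that is near the 8.15% over all genes tested. Ccnd3, cyclin D3, had 64.3 scaled reads in V205M cells, 1705 in WT cells, 440.1 in 2RA cells and 347 in control cells, and its partner kinase Cdk6 had 83.3 in V205M cells, 40.3 in WT cells, 218 in 2RA cells and 224 in control cells. Ccna2, cyclin A2, had 2662 in V205M cells, 5412 in WT cells, 1355 in 2RA cells and 923 in control cells. Growth arrest genes were 2 higher (Btg2 and Mxd1) and 0 lower of 30, and apoptosis genes 0 higher and 2 lower (Tnfsf10 and Cflar) of 44. Their listed shares were 6.67% and 4.55%, beside that 8.15%. Genes for structural maintenance of chromosomes, which hold or fold chromatids, were 4 higher and 0 lower of 15, between Smc4 (1.01) and Smc1a (1.33). The listed histone genes of S phase, Hist1h3b, Hist1h3c and Hist1h4f, were lower by 1.14 to 1.20, and the first 2 are close copies whose reads can be shared. The listed transcripts of the mitochondrial genome, mt-Nd1, mt-Nd2, mt-Nd4 and mt-Rnr1, were lower by 1.03 to 1.63, with mt-Nd1 at 28279 in V205M cells, 14715 in WT cells, 40764 in 2RA cells and 57753 in control cells. One small RNA, Scarna13, which guides RNA modification, was higher by 1.56.

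By difference in scaled reads, which favours long and abundant transcripts, the largest increases were in Eef1a1, Aldoa, Gm13456, Malat1 and Ldha. Malat1, a nuclear long noncoding RNA, had 16434 in V205M cells, 11528 in WT cells, 20883 in 2RA cells and 2939 in control cells. Eef1a1, the elongation factor that brings tRNA to the ribosome, had 40658 in V205M cells, 44141 in WT cells and 17901 in control cells. Gm13456, a processed pseudogene, had the same change as Eef1a1 to 2 decimals, 1.18. Pseudogenes were 55 of 620 higher genes with a GENCODE type (8.87%) and 9 of 415 lower ones (2.17%). Reads of a pseudogene and its parent can be shared in counting, so the pseudogene counts are uncertain. The largest decreases by reads, the mitochondrial genome apart, were in Mt1, Car2, Gpx1, Lgals9 and Cpa3.

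Listed genes were unevenly spread over the chromosomes. On chromosome 12, 52 were higher and 7 lower, 8.09 higher genes for each 100 annotated protein-coding genes, and on chromosome 6, 52 were higher and 13 lower, 4.68 for each 100. The other nuclear chromosomes had 1.67 to 3.49, and 47.2 to 68.8% of their listed genes were higher against 88.1% on chromosome 12 and 80.0% on chromosome 6. On chromosome 12 the higher genes lay mainly between 60 and 120 Mb, 24 higher and 2 lower from 60 to 90 Mb and 18 higher and 3 lower from 90 Mb on. They included Lgmn, Spnb1, Hif1a, Tgfb3, Hsp90aa1 and Mthfd1, and those on chromosome 6 included Slc2a3, Hk2, Cct7 and Cmas. Genes of chromosome 12 that were not listed but had both levels in other tables had a median change of 0.29 (27 genes), against 0.09 on chromosome 6 (33 genes) and 0.06 elsewhere (685 genes). In the authors' table of 2RA against control cells chromosome 12 also had 52 higher and 7 lower genes, and in that of WT against control cells 32 and 28. Chromosome 6 had 29 higher and 15 lower genes with 2RA, and 63 and 27 with WT. A lean to higher genes was not particular to chromosome 12 with 2RA, where chromosome 4 had 74 higher and 12 lower genes. Those tables share the control with this one. In the table of V205M against WT cells, which does not use the control, chromosome 12 had 39 higher and 11 lower genes. Chromosome 6 had 39 higher and 29 lower genes in that comparison.

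**Figure D5:**
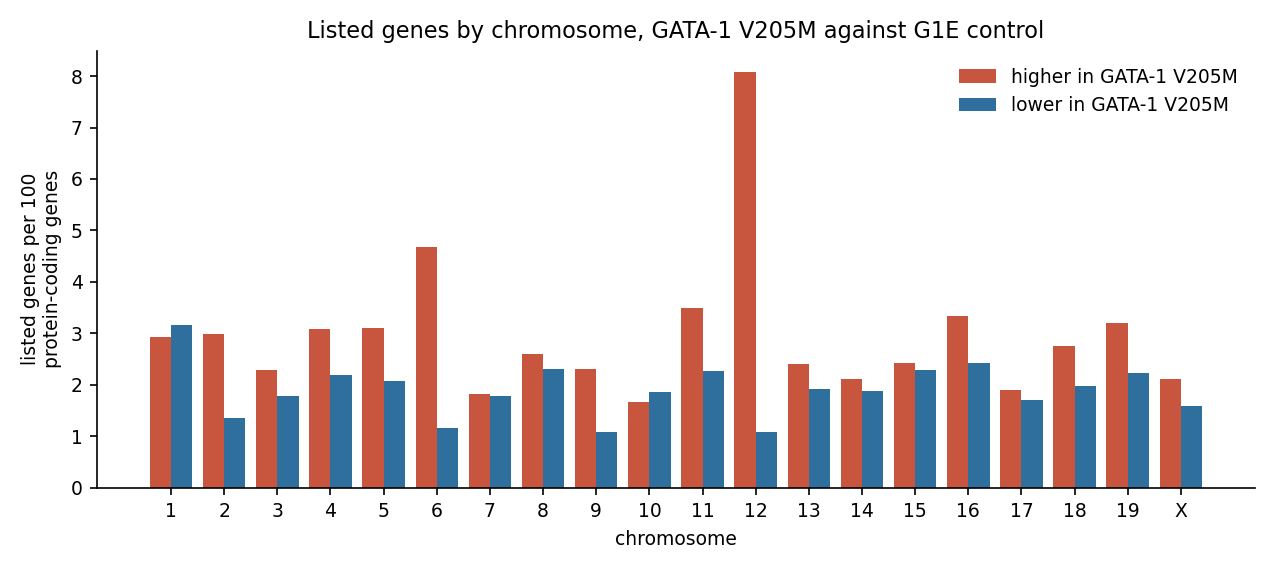
Listed genes for each 100 annotated protein-coding genes by chromosome, higher in V205M cells (left bars) and lower (right bars) than in control cells. Chromosome 12 has 8.09 higher genes for each 100 and chromosome 6 has 4.68, where the others have 1.67 to 3.49.

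Some listed genes were neighbours. Among 961 protein-coding members placed on GRCm38, 49 runs of adjacent annotated genes changed in 1 direction, 27 higher and 22 lower, together 101 genes, and 18 adjacent pairs went opposite ways. The longest runs had 3 genes. Mpzl1, Rcsd1 and Creg1 (chromosome 1, 165592176 to 165775309) were lower by 2.79, 2.92 and 1.75. Lrrc57, Haus2 and Stard9 (chromosome 2, 120604238 to 120729033) were higher by 2.22, 1.47 and 2.19, and Orc6, Mylk3 and 4921524J17Rik (chromosome 8, 85299632 to 85432841) by 1.08, 1.37 and 1.49. Lrrc57 and Haus2 overlap on opposite strands, so their reads cannot be told apart. Pairs included the calcium pump gene Atp2a3 with P2rx1, Tspo2 with Unc5cl, Csf2rb2 with Csf2rb, and Fdps with Pklr.

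The genes just inside the fold limit show how close it lies to small differences. Dapp1, Pmpcb and Acad11 were higher, with 849, 291 and 107 scaled reads in V205M cells and 424, 145 and 53.3 in control cells. Crebbp, Meaf6 and Gm16418 were lower, with 53.2, 59.8 and 104 in V205M cells and 106, 120 and 209 in control cells. Genes just outside the limit are not in this table. Gata2 (0.77) and Kit (-0.75) are known from other tables only.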

How the data were processed

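The deposited tables hold the authors' comparisons of 4 groups with 1 sample each. The submitters' processing notes name the mm10 build and, in no stated order, the tools deepTools, TopHat, Cuffdiff and Cufflinks; the sources used here do not give which of them made these tables, or their versions. The deposited signal of a group is the authors' mean read count divided by a size factor, the deposited ratio (fold) is V205M over control, the deposited log2 value is its logarithm, and the authors' p-value was adjusted over 12931 genes and limited to 0.01, with a 2-fold limit.

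Here log2 changes were recomputed with a pseudocount of 1 scaled read. Whole reads were recovered for 100% of values, with size factors of 1.16 and 0.998 for the V205M count columns, 1.17 and 0.357 for the control, 1.59 for WT and 1.40 for 2RA. These columns are not labelled samples and were not used as replicates, except in an alternative chosen after seeing the data, in which edgeR 4.0.16 quasi-likelihood (R 4.3.3, tested on simulated data) on 1648 genes called all 625 higher and 429 lower genes at an adjusted p of 0.05. That outcome was largely set beforehand, since the authors chose the genes on the same columns, and it compares columns, not conditions.

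The members and gene lists were chosen with earlier results of these data known, and the families for sialic acid, ribosome and protein synthesis, chaperones, chromosome maintenance, proton pump, peroxiredoxins, metallothioneins, purine and prostanoid signals, Rgs proteins, transglutaminases, Arp2/3, nuclear receptors and immune kinases after the values were seen. Genes were named by rule: the factors, the 15 largest increases and decreases (at least 20 scaled reads in the higher group), the 5 largest in level each way, up to 6 per list, the 3 just inside each limit and runs of neighbours. Some genes chosen by it are not reported here. Others are named as examples chosen after their values were seen. WT and 2RA levels come from the other tables, where listed: 793 and 712 genes have one. Positions are from GENCODE M21 (GRCm38) for 1035 genes, and promoters from RefSeq GRCm38.p6 for 786. Python 3.11.15, pandas 2.3.3 and scipy 1.17.1 were used. Apart from edgeR on the columns, no test was run, with 1 sample a group.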

Additional observations from a re-analysis of the deposited data

How the results depend on the processing

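With 1 sample a group, no result has a replicate check, and counting precision is least where a group had 1 to 3 reads. Of 1054 listed genes (625 higher, 429 lower), leaving out 1 count column left 953 to 1003 past 2-fold, 528 to 604 higher and 388 to 425 lower. Asking for 100 scaled reads where a gene was highest left 249 lower genes. Centring on the median change of 1.11 left 558, 129 higher, and equal summed levels 352 higher. Both shifts kept all 429 lower genes and could only remove higher ones, because unlisted genes did not enter. Limits of an authors' adjusted p of 1e-05, of 4-fold and of 8-fold left 629 (393 higher, 236 lower), 309 (147 and 162) and 110 (47 and 63). Centring turned the changes of Acad11 to -0.11, Blvrb -0.10, Dapp1 -0.10, Itgb2 -0.11, Orc6 -0.027 and Pmpcb -0.11. It turned the medians of red cell membrane genes to -1.01 and of ribosomal proteins to -0.044, and equal summed levels turned that of red cell membrane genes to -0.26. With 100 or more scaled reads the medians turned for stem and progenitor genes (-0.081), mast cell genes (1.29), cytokine receptors (1.30), cell adhesion (0.29), sialic acid genes (-1.69), purine receptors (0.90) and nuclear receptors (-1.49), since fewer genes enter. A pseudocount of 0.5 or 10 reversed no named gene (170) or list median (42). No paired analysis was possible because the labels give 1 sample a group and no replicate numbers.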
